A study of Mus musculus with 16 samples.

Results

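The genes described here serve lipid uptake and lipid droplets in mouse liver: Cd36, Lpl, Vldlr, Fabp4, Plin2, Plin4, Plin5, Cidea, Cidec and Pnpla2. These 10 genes were picked by name, with earlier results of these data known. Each was read through its probe with the highest mean over the 16 arrays. The 10 genes have 18 probes on the array. A probe entered the tests when it stood well above background on at least 4 of the 16 arrays. By that filter 9 of the 10 genes were tested among 31484 genes in all, of which 17666 have a gene symbol. Vldlr was well above background on 0 of the 16 arrays and was not tested.

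RNA came from livers of male mice aged 6 weeks on a mixed background of 75% C57BL/6 and 25% SV129. There were 4 conditions of CerS2, the gene of ceramide synthase 2, with 4 samples each. The labels name them CerS2 H/A (condition HA), WT, CerS2 Del (condition delHox) and CerS2 Flox (condition delneo), here H/A, WT, Del and Flox. They do not state what each allele carries, and no animal number is given, so p-values measure the spread between these samples. No probe could be named for Cers2 itself, so the genotypes were not checked on the arrays. All 16 samples were read in 1 colour (Cy3) on 2 slides, and slide 1 held 3 H/A, 2 WT, 1 Del and 2 Flox arrays. On each array 51.6% to 65.2% of spots stood well above background and 0 spots were saturated. Of 12 hepatocyte markers listed, 11 had a named probe, and all 11 passed the filter.

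The liver takes up fatty acids through carriers such as Cd36 and from lipoproteins that lipases such as Lpl split on cell surfaces. Fatty acids are esterified to triglycerides, which are stored in droplets under a coat of perilipins, and Cide proteins help droplets to exchange lipid and grow. Pnpla2 starts the breakdown of the stored triglycerides. Ceramide synthase 2 makes ceramides with very long acyl chains and is abundant in liver. Many genes of uptake and storage are known targets of the PPAR nuclear receptors, which bind pairs of the hexamer AGGTCA.

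Promoter sequence is shown for Cd36 and Plin2, which were higher in H/A and Del livers in the tests that follow. The sequences are the 250 bases before the RefSeq start (GRCm38.p6). Capitals mark every match to AGGTCA or to the GC box GGGCGG on either strand.
Cd36, chr5:17835897-17836146, minus strand: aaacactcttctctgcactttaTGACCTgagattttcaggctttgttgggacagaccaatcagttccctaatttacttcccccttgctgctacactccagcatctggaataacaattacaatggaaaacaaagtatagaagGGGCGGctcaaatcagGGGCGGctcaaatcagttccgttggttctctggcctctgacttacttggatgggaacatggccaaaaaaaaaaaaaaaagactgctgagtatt
Plin2, chr4:86670060-86670309, minus strand: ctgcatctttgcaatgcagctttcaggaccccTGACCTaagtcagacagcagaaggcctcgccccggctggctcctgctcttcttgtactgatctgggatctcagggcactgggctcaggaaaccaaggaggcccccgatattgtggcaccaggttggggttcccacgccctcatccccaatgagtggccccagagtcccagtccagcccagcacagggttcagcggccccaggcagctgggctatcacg

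Both promoters hold the PPAR hexamer on the opposite strand, at 228 to 223 bases before the start in Cd36 and at 218 to 213 bases in Plin2. Windows were read for Cd36, Plin2, Plin4, Plin5, Cidec, Pnpla2 and Vldlr, 10 windows in all, because several genes have more than 1 start. No window was available for Lpl and Fabp4, and Cidea was not read. The hexamer was in 3 of the 10 windows, those of Cd36, Plin2 and Plin5, against 14.02% of 32851 windows of the same length genome-wide. Direct repeats of the hexamer 1 base apart, the DR1 element, were in 0 of the 10 windows and in 0.0335% of all windows. The GC box was in 5 of the 10 and in 32.7% of all windows. An AP-1 site, TGANTCA, was in 2 of the 10, those of Cidec and Plin5, and in 6.75% of all windows. The E-box CACGTG and the TATA box TATAAA were in 0 of the 10 windows, against 6.02% and 12.4% of all windows. A match describes letters in the window and is not a measured binding site.

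Of the uptake genes, Lpl and Cd36 were higher in both H/A and Del livers than in either WT or Flox livers. Lpl, the lipase that frees fatty acids from circulating triglycerides, was at 8.96, 8.60, 8.37 and 8.08 on the log2 scale in the 4 WT livers. In Flox livers it was at 8.94, 8.63, 8.20 and 8.05. In H/A livers Lpl was at 10.65, 10.13, 10.02 and 10.89, and in Del livers at 10.76, 11.09, 10.59 and 10.47. All 8 H/A and Del values lay above all 8 WT and Flox values, with the lowest at 10.02 and the highest of the others at 8.96. Across all genes tested, 4.49% had all 8 H/A and Del arrays above the 8 WT and Flox arrays.

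The Lpl mean was 8.50 ± 0.37 in WT, 8.46 ± 0.41 in Flox, 10.42 ± 0.42 in H/A and 10.73 ± 0.27 in Del (SD, n = 4). Lpl rose 3.79-fold in H/A against WT (log2 difference 1.92, 95% interval 1.40 to 2.45, limma with Benjamini-Hochberg adjusted p = 0.000383). Against Flox, Lpl rose 4.83-fold in Del (2.27, 1.75 to 2.80, limma adjusted p = 5.58e-05). Against WT the Del difference was 2.23 (1.71 to 2.75, limma adjusted p = 6.76e-05). Within slide 1 the 3 differences were 1.49 for H/A against WT, 1.98 for Del against Flox and 1.99 for Del against WT. Within slide 2 they were 2.67, 2.59 and 2.50. Here and for the genes below, slide 1 values of Del rest on 1 Del array, and slide 2 values of H/A on 1 H/A array. Slide 1 alone made few calls over all genes, 14, 160 and 141 in the same order, and Lpl was not among them.

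Cd36, the scavenger receptor that carries long-chain fatty acids into cells, was at 7.63, 7.54, 7.31 and 7.40 in WT and at 7.71, 7.44, 7.44 and 7.24 in Flox. It was at 8.71, 8.66, 8.27 and 8.84 in H/A, and at 8.34, 8.40, 8.91 and 8.51 in Del. Again the groups did not overlap, as was so for 4.49% of all genes tested. The lowest H/A or Del value was 8.27 and the highest WT or Flox value was 7.71. The means were 7.47 ± 0.14 in WT, 7.46 ± 0.19 in Flox, 8.62 ± 0.25 in H/A and 8.54 ± 0.26 in Del (SD, n = 4). Cd36 rose 2.21-fold in H/A against WT (1.14, 0.81 to 1.48, limma adjusted p = 0.000609). It rose 2.12-fold in Del against Flox (1.08, 0.75 to 1.42, limma adjusted p = 0.000397) and 2.10-fold in Del against WT (limma adjusted p = 0.000516). Within slide 1 the differences were 0.96, 0.77 and 0.75 in that order, without a call, and within slide 2 they were 1.48, 1.27 and 1.25.

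**Figure D1:**
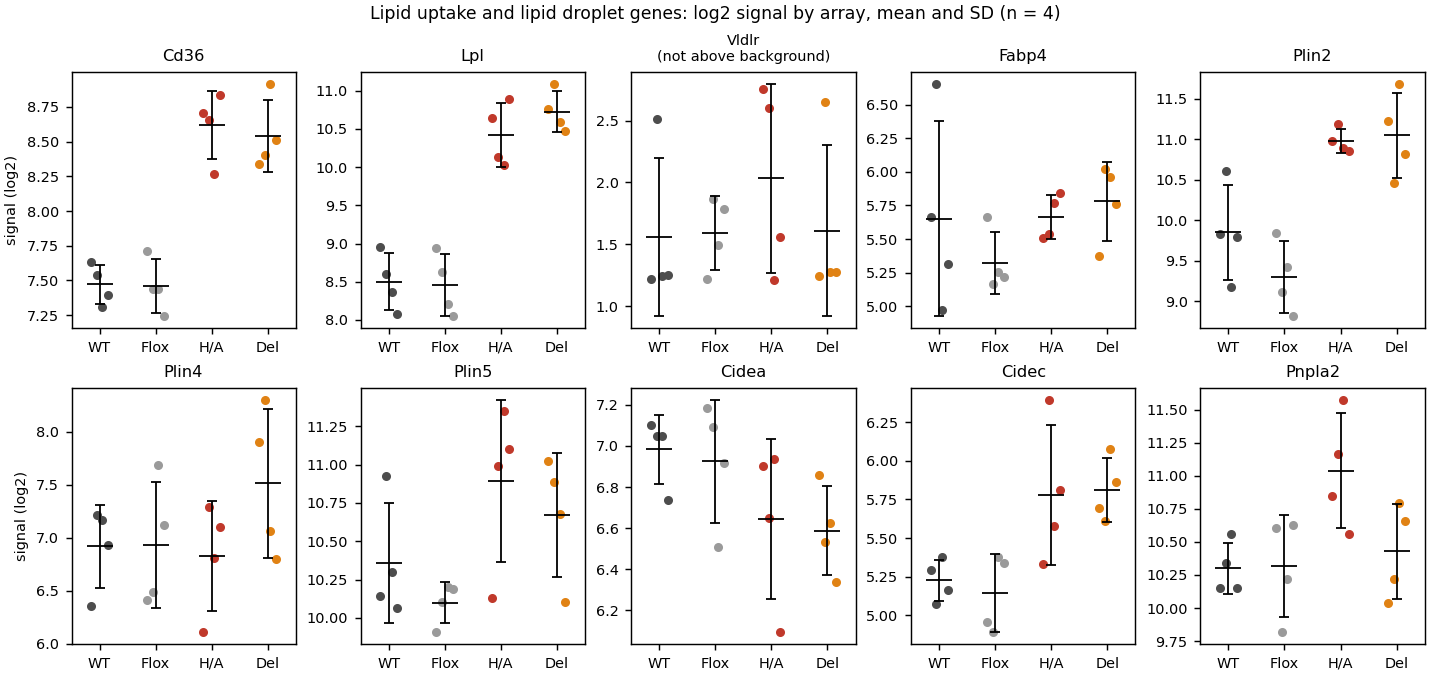
Signal of the 10 genes on the log2 scale (vertical axes, each on its own range) in WT, Flox, H/A and Del livers. Points are single arrays, and the bars are the mean and SD of 4. Lpl and Cd36 show no overlap between H/A or Del and WT or Flox arrays, while Fabp4 and Plin4, and Pnpla2 in Del, overlap widely.

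Cd36 has 6 probes, each named for a transcript record, and they did not all move together. The first 30 bases of each are shown because their readings differ. Which other transcripts each probe reads cannot be told here.
NM_001159558.1: gtgagccactgcttatatattaagtctctc
NM_001159557.1: ttttgatggttcctttaaacttgtggcctt
NM_001159556.1: ctcatacattgctgtttatgcatgaattag
NM_007643.4: tgcacacatggaatttaaagaggctggaag
XM_006535620.1: ggtgtgtttactttctgtgtctccttcaac
NM_001159555.1: gtttcaactctcacacacataagtagtgag

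With every kept probe tested on its own (37819 probes), the first 4 Cd36 probes rose in H/A against WT, Del against WT and Del against Flox. In those comparisons 9.33%, 12.9% and 32.1% of all probes were called. The probe named for NM_001159557.1 went from 4.92 ± 0.27 in WT to 6.55 ± 0.19 in H/A (SD, n = 4), a difference of 1.63 (1.23 to 2.04, limma adjusted p = 0.000187). The probe for NM_007643.4 differed by 1.31 in H/A against WT and by 1.16 in Del against Flox, and was well above background on 2 of 4 WT arrays. The probe for NM_001159556.1 differed by 2.27 (1.32 to 3.22) in H/A against WT. It was well above background on 2 of 4 WT and 2 of 4 Flox arrays, and on all 4 H/A and all 4 Del arrays.

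The last 2 Cd36 probes read otherwise. The probe for XM_006535620.1 was at 3.79 ± 0.27 in H/A and 4.32 ± 0.40 in WT (SD, n = 4), a difference of -0.52 (-1.13 to 0.09) that did not pass the test. In Del against Flox it differed by -0.76 (-1.36 to -0.15, limma adjusted p = 0.0542). The probe for NM_001159555.1 was well above background on 5 of 16 arrays, on 2 of 4 Del and on 0 of 4 Flox arrays. Its measured means were 3.81 in Del and 2.89 in Flox (limma adjusted p = 0.00491), but with so few arrays above background no fold is given. Its H/A against WT difference was 0.26 (-0.17 to 0.68).

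**Figure D2:**
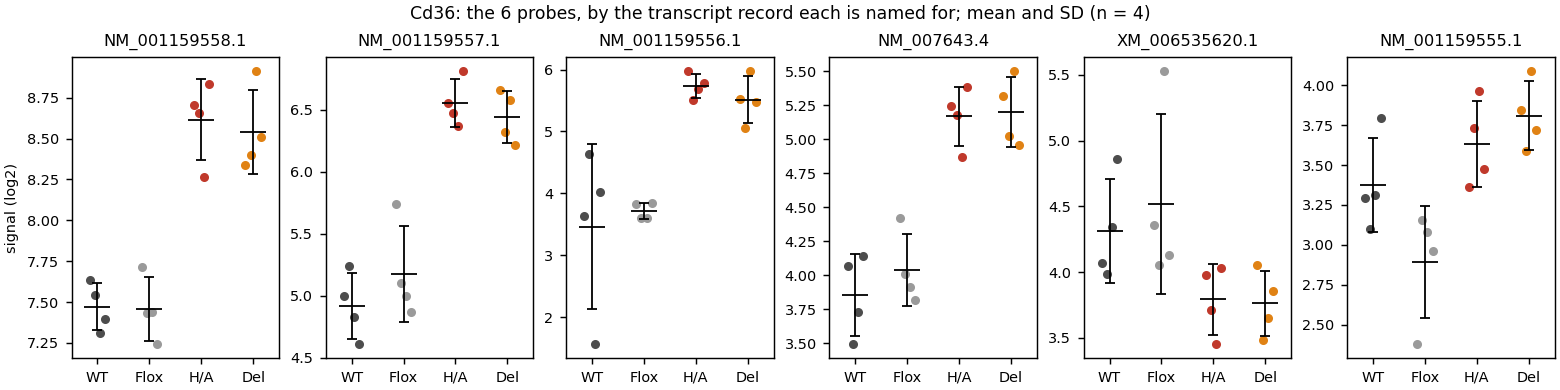
Log2 signal of the 6 Cd36 probes (vertical axes, each on its own range) by condition, with single arrays as points and the mean and SD of 4 as bars. In the first 4 panels the H/A and Del arrays lie above WT and Flox; in the panel of XM_006535620.1 their means, 3.79 and 3.76, are below the WT mean of 4.32.

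Fabp4, a cytosolic fatty acid binding protein best known from fat and macrophages, did not pass the test in any comparison of all 16 arrays; within slide 2 alone Del against WT was called, at 0.77. It ranged from 4.97 to 6.65 in WT, from 5.17 to 5.66 in Flox, from 5.51 to 5.84 in H/A and from 5.37 to 6.02 in Del. The highest of the 16 values was a WT liver. Its difference was 0.01 (-0.57 to 0.59) in H/A against WT and 0.46 (-0.13 to 1.04) in Del against Flox. A second Fabp4 probe, well above background on 13 of 16 arrays, had the opposite sign without a call. It differed by -0.17 (-0.70 to 0.36) in H/A against WT and by -0.43 (-0.95 to 0.10) in Del against Flox. The H/A against WT difference of the first probe changed sign under other scalings. For Vldlr, the receptor for very low density lipoprotein, values of 1.21 to 2.76 were not well above background, so no level is compared.

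Of the droplet coat genes, Plin2 rose in H/A and in Del. Plin2, the perilipin that coats hepatocyte droplets and whose protein is stabilised by lipid, was at 9.83, 10.60, 9.18 and 9.79 in WT and at 9.84, 9.11, 9.42 and 8.82 in Flox. It was at 10.97, 11.18, 10.89 and 10.86 in H/A and at 11.23, 10.46, 11.68 and 10.82 in Del. Of the 8 H/A and Del arrays, 7 lay above the highest WT or Flox value, the 10.60 of WT replicate 2. The means were 9.85 ± 0.58 in WT, 9.30 ± 0.44 in Flox, 10.98 ± 0.15 in H/A and 11.04 ± 0.53 in Del (SD, n = 4).

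Plin2 rose 3.35-fold in Del against Flox (1.75, 1.11 to 2.38, limma adjusted p = 0.00109). It rose 2.18-fold in H/A against WT (log2 interval 0.49 to 1.76, limma adjusted p = 0.0276) and 2.29-fold in Del against WT (1.19, 0.56 to 1.83, limma adjusted p = 0.0157). Within slide 1 the H/A against WT difference was 0.80 and within slide 2 it was 1.37, neither of them called. Del against WT was 1.01 and 1.5, also without a call. Del against Flox was 1.75 within slide 1, uncalled, and 1.86 within slide 2, called. The call against WT in H/A was lost on leaving out HA replicate 2 (1.06) or 3 (1.15), or WT replicate 1 (1.12), 3 (0.90) or 4 (1.11). That in Del was lost on leaving out WT replicate 3 (0.97) or delHox replicate 3 (0.98), and with the 2 groups fitted alone (1.19, limma adjusted p = 0.0522).

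The other perilipins did not pass the test. Plin5, which links droplets to mitochondria in tissues that burn fat, was at 10.36 ± 0.39 in WT, 10.10 ± 0.14 in Flox, 10.89 ± 0.53 in H/A and 10.67 ± 0.40 in Del (SD, n = 4). Its difference was 0.54 (-0.02 to 1.09, limma adjusted p = 0.163) in H/A against WT and 0.57 (0.02 to 1.13, limma adjusted p = 0.0906) in Del against Flox. The Plin5 value of 10.13 in HA replicate 1 lay among the WT values, and without it the H/A difference was 0.79 and passed. The second passed without HA replicate 1 (0.57) or delHox replicate 4 (0.76). Plin4, a perilipin of fat tissue and muscle, ranged from 6.11 to 7.29 in H/A, from 6.80 to 8.30 in Del, from 6.36 to 7.22 in WT and from 6.42 to 7.69 in Flox. The Plin4 groups overlapped in every comparison, with differences of -0.09 (-0.86 to 0.68) in H/A against WT and 0.58 (-0.19 to 1.36) in Del against Flox. The sign of each changed in 1 of the 2 slides.

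Of the Cide genes, Cidec rose in 1 comparison and Cidea in none. Cidec, which promotes the growth of large droplets, was at 5.29, 5.08, 5.38 and 5.16 in WT and at 4.96, 4.89, 5.38 and 5.34 in Flox. It was at 5.33, 6.39, 5.58 and 5.81 in H/A and at 5.70, 5.61, 6.08 and 5.86 in Del. All 4 Del values lay above all 4 Flox values, as did those of 15.9% of all genes tested. Cidec rose 1.59-fold in Del against Flox (0.67, 0.25 to 1.09, limma adjusted p = 0.0206). That call was lost without delHox replicate 3 (0.58) or delneo replicate 1 (0.61), and within either slide alone (0.77 and 0.49).

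Against WT, Cidec differed by 0.55 (0.13 to 0.97, limma adjusted p = 0.0791) in H/A and by 0.59 (0.17 to 1.01, limma adjusted p = 0.0614) in Del. The H/A value passed without HA replicate 1 (0.70), and the Del value passed without HA replicate 1 or 2, or when its 2 groups were fitted alone (0.59 each time). Cidea, a related droplet protein of brown fat, had lower means in H/A and Del without passing the test. It was at 6.98 ± 0.17 in WT, 6.93 ± 0.30 in Flox, 6.64 ± 0.39 in H/A and 6.59 ± 0.22 in Del (SD, n = 4). Its differences of -0.34 (-0.75 to 0.07) in H/A against WT and -0.34 (-0.75 to 0.08) in Del against Flox had limma adjusted p = 0.229 and 0.173.

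Pnpla2, the lipase known as ATGL that starts triglyceride breakdown in droplets, was at 10.15, 10.34, 10.56 and 10.15 in WT and at 10.85, 11.16, 11.57 and 10.56 in H/A. In Del it ranged from 10.04 to 10.79 and in Flox from 9.82 to 10.63. The H/A values were the highest in mean, 11.04 ± 0.43 against 10.30 ± 0.19 in WT (SD, n = 4). The lowest H/A value, 10.563, lay just above the highest WT value, 10.559, and below the highest Flox value. The difference was 0.74 (0.23 to 1.24, limma adjusted p = 0.058) and missed the threshold. It passed with each array scaled to its 75th percentile (0.86, limma adjusted p = 0.0476), without HA replicate 4 (0.89), and without delHox replicate 3 or delneo replicate 2 (0.74). The second Pnpla2 probe differed by 0.50 (-0.07 to 1.06, limma adjusted p = 0.209) in H/A against WT and was not called. In Del against Flox Pnpla2 differed by 0.11 (-0.39 to 0.61), and its second probe by -0.23.

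Counted over the group, H/A against WT had 3 of the 9 tested genes higher by the test and 0 lower. There 10.1% of all genes tested were called, 2230 higher and 936 lower. In Del against WT 3 rose and 0 fell, beside 13.2% of all genes, of which 2786 were higher and 1379 lower. In Del against Flox 4 rose and 0 fell, beside 34.8% of all genes, of which 5231 were higher and 5717 lower. These shares rest on single arrays. Without WT replicate 2 the calls in H/A against WT went from 3166 to 8021, and without WT replicate 1, 3 or 4 or HA replicate 2, 3 or 4 to between 1450 and 2101. In Del against WT they went from 4165 to 7174 without WT replicate 2, and to between 2189 and 2768 without WT replicate 1, 3 or 4 or delHox replicate 3. In Del against Flox they went from 10948 to 5098, of which 3174 were higher, without delHox replicate 3, and to 6626 without delneo replicate 1. The median difference of the 9 genes was 0.55, 0.59 and 0.58 in these comparisons, and that of all genes tested was -0.09, -0.11 and -0.14. The 9 genes were chosen with earlier results of these data known. Their counts and medians therefore cannot be weighed against those of all genes. Del against WT shares its WT arrays with the first comparison and its Del arrays with the third.

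WT and Flox were compared as well. In Flox against WT 0 of the 9 genes passed limma's test, 0 had an unadjusted p under 0.05, and 0.0222% of all genes were called. Differences ran from -0.55 for Plin2 (-1.18 to 0.08) to 0.02 for Pnpla2 (-0.48 to 0.52). Those of Lpl and Cd36 were -0.04 (-0.57 to 0.48) and -0.01 (-0.35 to 0.32), with signs that changed as single arrays were left out.

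H/A and Del were also set against each other. In H/A against Del 0 of the 9 genes passed limma's test, 1 had an unadjusted p under 0.05, and 0.0127% of all genes were called. That gene was Pnpla2, at 0.61 higher in H/A (0.11 to 1.11, limma adjusted p = 0.567). Lpl differed by -0.31 (-0.83 to 0.22), Cd36 by 0.07 (-0.26 to 0.41) and Plin2 by -0.07 (-0.70 to 0.56). The test of H/A minus WT against Del minus Flox called 0 of the 9 genes and 0.00318% of all genes. In that test Lpl differed by -0.35 (-1.09 to 0.39), Plin2 by -0.62 (-1.51 to 0.27) and Pnpla2 by 0.63 (-0.08 to 1.34), so the 2 effects were not shown to differ for any of the 9, nor shown to be alike.

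**Figure D3:**
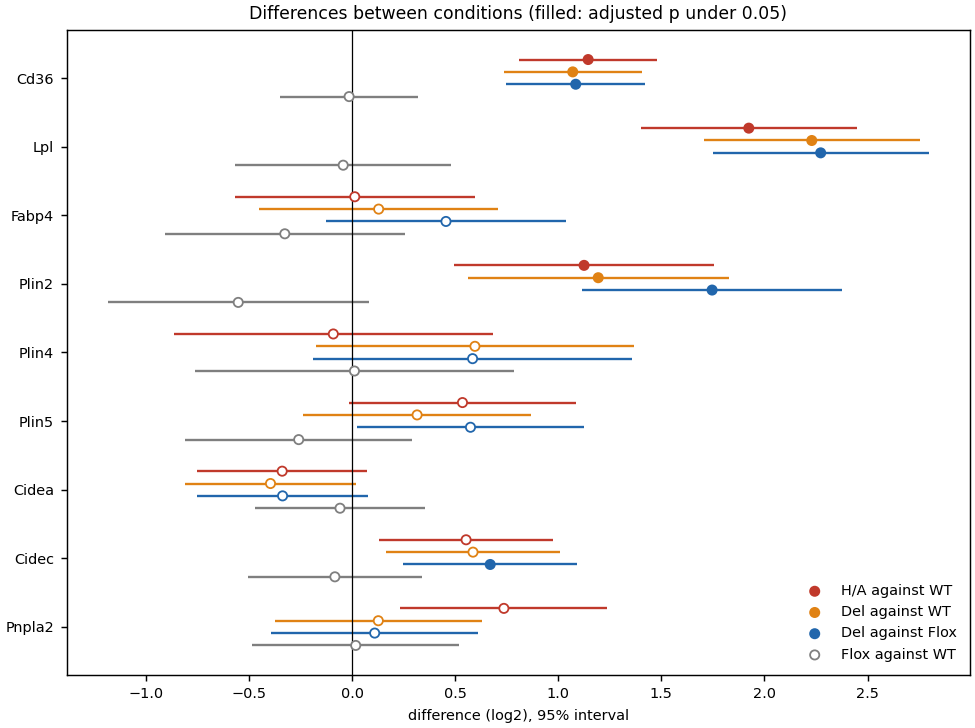
Differences between conditions on the log2 scale with 95% intervals (horizontal axis) for the 9 tested genes. Filled points have adjusted p under 0.05; Lpl, Cd36 and Plin2 are filled in 3 comparisons, Cidec in Del against Flox, and none in Flox against WT.

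Other genes of the same pathways were counted on lists, also chosen with earlier results of these data known. Of 21 tested genes for lipoprotein receptors, lipases and their regulators, H/A against WT called 5 higher and 1 lower, as many as Del against WT and Del against Flox did. Beside these and the following lists stand the shares of all genes called, 10.1%, 13.2% and 34.8%, and in Del against Flox 6 calls of 21 are below that share. Calls on the droplet, triglyceride hydrolysis and nuclear receptor lists given below are also under that share in Del against Flox. For triglyceride hydrolysis the H/A against WT calls, 1 of 18, are under the 10.1% as well. Sdc1, a heparan sulfate proteoglycan that clears remnant lipoproteins, rose by 1.24 in H/A against WT and by 1.33 in Del against Flox (limma adjusted p = 0.000242 and 7.1e-05). Lsr, a lipoprotein receptor activated by lipolysis, rose by 0.97 and 1.17 in those comparisons. Apoc2, the activating cofactor of Lpl, rose by 0.86 and 1.28, from means of 13.27 ± 0.29 in WT and 13.16 ± 0.08 in Flox (SD, n = 4). Apoa4, an apolipoprotein of triglyceride-rich particles, rose by 1.60 in Del against Flox.

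On the list of 20 further genes for droplet coat, assembly and fusion, H/A against WT had 5 calls up and 0 down, Del against WT had 3 up and 0 down, and Del against Flox had 4 up and 1 down. Plin3, a widely expressed perilipin, rose by 0.99 in H/A against WT and by 1.37 in Del against Flox (limma adjusted p = 0.00291 and 0.000163). Hsd17b13, a liver droplet protein, rose by 0.99 and 0.88. Hilpda, a droplet protein that inhibits Pnpla2, rose by 1.36 in Del against Flox, where Fitm1, which helps droplets form, fell by 0.79.

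In Del against Flox the remaining lists, too, had calls in both directions. Of 21 genes for fatty acid uptake, binding and activation other than the members, H/A against WT had 2 calls up and 1 down, Del against WT had 0 up and 3 down, and Del against Flox had 4 up and 6 down. Acsl1, the main acyl-CoA synthetase of liver, fell by 1.02 in Del against Flox, and Slc27a5, a fatty acid transport protein of hepatocytes, fell by 0.75. In the same comparison Acsl4, which prefers arachidonic acid, rose by 1.48, and Cavin1 rose by 0.96. Fabp5 differed by -2.21 (-3.13 to -1.28, limma adjusted p = 0.00391) in Del against WT. Fabp5 means were 10.92 ± 1.09 in WT, 9.88 ± 0.34 in Flox and 8.71 ± 0.67 in Del (SD, n = 4). Of 18 genes for triglyceride hydrolysis, H/A against WT had 1 call up and 0 down, and Del against Flox had 1 up and 4 down. The gene that rose was Lipa, the lysosomal acid lipase, by 0.89 and 1.04, and among those that fell in Del were Ces2a (by 1.06) and Lipe, the hormone-sensitive lipase (by 0.90). Of 16 genes for triglyceride synthesis and secretion, H/A against WT had 4 calls up and 1 down, and Del against Flox had 5 up and 2 down. In Del against WT 3 rose and 0 fell. Each up count includes Soat1, which was well above background on 0 WT, 0 Flox, 3 H/A and 2 Del arrays. Soat1 thus entered the tests only through H/A and Del arrays, and its call is no support for a rise. The gene that fell in H/A against WT was Mttp, at -0.62 (limma adjusted p = 0.00526). That call was lost as the mean of its probes (-0.248). Pdia4 rose by 0.97 in Del against Flox. Gpat3, an acyltransferase at the start of triglyceride synthesis, rose by 2.58 in H/A against WT and by 2.44 in Del against WT. Its means were 4.98 ± 0.86 in WT and 6.26 ± 0.93 in Flox (SD, n = 4), a difference of 1.27 that did not pass the test. In Del against Flox Gpat3 rose by 1.17 (0.26 to 2.07, limma adjusted p = 0.0449), a call lost in 10 of the 16 fits with 1 array left out, which gave 0.72 to 1.39. Over all these lists 0 genes were called in Flox against WT.

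**Figure D4:**
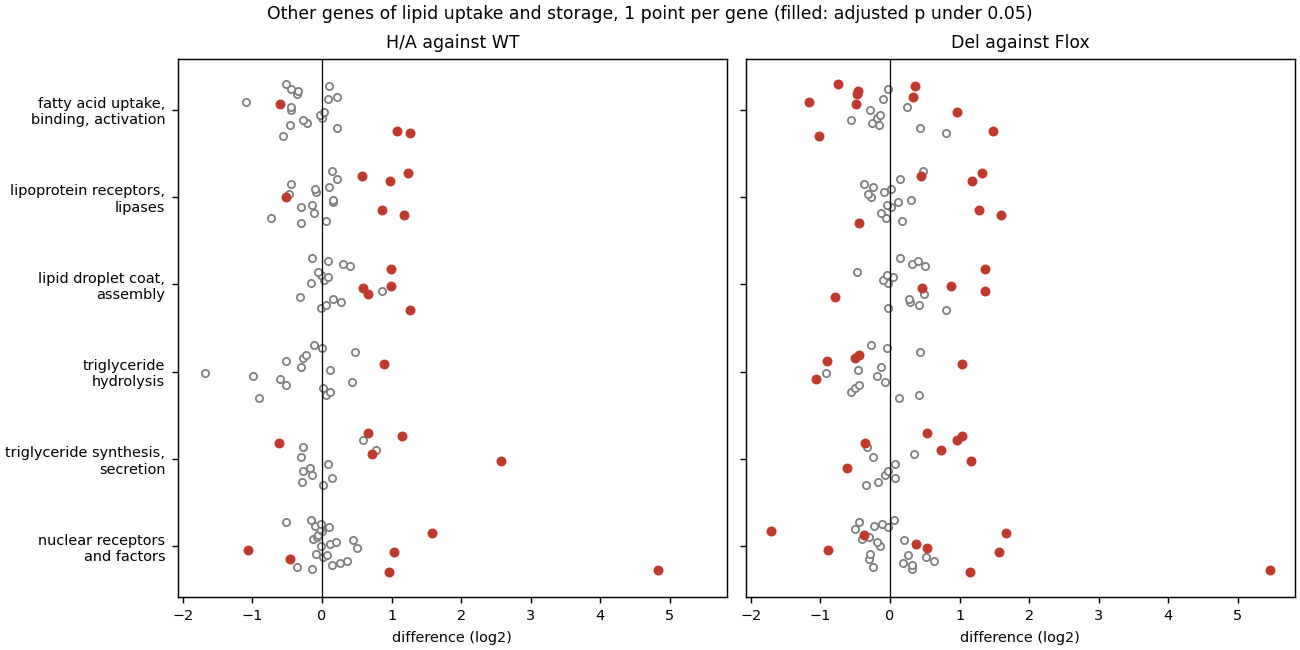
Log2 differences (horizontal axes) of the tested genes on 6 lists, in H/A against WT and in Del against Flox, 1 point per gene, filled where the adjusted p is under 0.05. Filled points lie mostly to the right for lipoprotein receptor, droplet coat and triglyceride synthesis genes, and in Del against Flox every list has some on both sides. The point beyond 4 is Atf3, whose WT and Flox values are not well above background.

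Of 29 nuclear receptors and factors known to act on such genes, H/A against WT had 4 calls up and 2 down, and Del against Flox had 6 up and 3 down. Pparg, the PPAR that drives fat storage, was at 6.77, 7.34, 6.70 and 7.17 in WT and at 7.84, 7.43, 7.15 and 6.85 in Flox. It was at 8.28, 8.79, 8.68 and 8.59 in H/A and at 9.17, 8.54, 9.26 and 8.99 in Del. The lowest H/A or Del value, 8.28, lay above the highest WT or Flox value, 7.84, a separation seen in 4.49% of all genes tested. Pparg rose by 1.59 in H/A against WT (limma adjusted p = 0.000623) and by 1.67 in Del against Flox (limma adjusted p = 0.0002). Ppara, the PPAR that drives fatty acid oxidation in liver, differed by -0.07 and -0.30 in these comparisons and did not pass the test. The sign of the Ppara difference in H/A changed when arrays were scaled to the 75th percentile. Atf3, a factor induced by stress, was well above background on 0 of the WT and Flox arrays, so its change has a bound. It entered the tests only through H/A and Del arrays and is among the calls up. H/A stood at least 13.5-fold above WT for Atf3, and Del at least 18.5-fold above Flox. Ahr and Klf4 rose by 1.15 and 1.57 in Del against Flox.

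Markers of other cells were read beside these values, because Lpl, Cd36, Fabp4 and Plin2 are also made by macrophages, endothelium or fat. In whole liver, fewer cells of a type and less RNA per cell cannot be told apart. Of 13 tested Kupffer cell and macrophage markers, H/A against WT had 10 calls up and 0 down, and Del against Flox had 8 up and 2 down. Their summed linear signal was 4190 to 8047 in WT, 4899 to 7274 in Flox, 9326 to 19365 in H/A and 10372 to 11586 in Del, without overlap between H/A or Del and the rest. The 2 markers that fell in Del against Flox were Csf1r, at -0.72, and C1qc, at -0.52 (limma adjusted p = 0.0257 and 0.0134). Of 11 markers of lipid-associated macrophages, H/A against WT had 7 calls up and 0 down, and Del against Flox had 7 up and 1 down, with Lgals3 up by 2.94 and 3.30. The marker that fell in Del against Flox was Trem2, a receptor that defines these cells, by 0.71 (limma adjusted p = 0.0293), and Gpnmb, well above background on 1 of 16 arrays, was not tested. The part of these cells in the Lpl, Cd36 and Plin2 values was not tested. Beside these marker counts stand the shares of all genes called, 10.1% in H/A against WT and 34.8% in Del against Flox.

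Markers of fat and endothelium gave other counts. Of 7 tested adipocyte markers 0 were called in H/A against WT, 1 fell in Del against WT and 2 fell in Del against Flox (Lipe by 0.90 and Aqp7 by 0.65), and 0 rose in any of the comparisons. Adipoq and Lep were well above background on 0 arrays. Of 14 endothelial markers 0 were called in H/A against WT and 1 rose and 1 fell in Del against Flox. Their summed signal was 4945 to 5998 in WT, 4449 to 4776 in Flox, 4477 to 5452 in H/A and 3944 to 5264 in Del. Of 11 stellate cell markers 1 rose in H/A against WT and 5 rose in Del against Flox. Of all genes tested, 10.1% were called in H/A against WT, 13.2% in Del against WT and 34.8% in Del against Flox. The adipocyte and endothelial calls in Del against Flox, and the stellate call in H/A against WT, are under these shares.

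**Figure D5:**
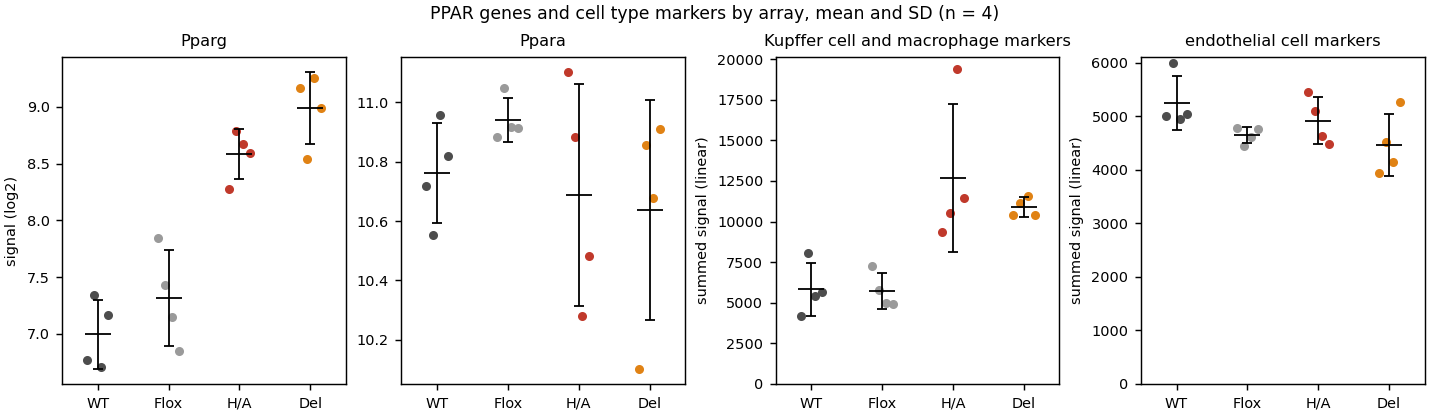
Pparg and Ppara on the log2 scale, and the summed linear signal of macrophage and of endothelial markers, by condition; points are arrays and bars the mean and SD of 4. Pparg and the macrophage sum are higher on all H/A and Del arrays than on all WT and Flox arrays, while Ppara and the endothelial sum overlap.

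Likeness of pattern was measured as the root mean square difference of log2 values over the 16 arrays, each gene centred on its own mean, among 17657 genes. Nearest to Cd36 were Tyms-ps at 0.15, Tmem140 at 0.17 and Dab2ip at 0.17, where the median gene was at 0.71. Nearest to Lpl were Mki67, Jun and Mcm5 at 0.36 to 0.37, where the median gene was at 1.19. Mki67 and Mcm5 are proliferation genes, and Jun is a subunit of AP-1. Nearest to Plin2 were Rhpn2 and Ifngr1 at 0.23 and Ets2 at 0.27. Nearest to Cidec were Mospd1 at 0.19 and Trp53bp2 and Arf6 at 0.20. For Plin5 the nearest was Acox2, an enzyme of peroxisomal oxidation, at 0.24, and for Pnpla2 it was Stard5 at 0.18. For Cidea the nearest was Xaf1 at 0.13, for Fabp4 it was Ints5 at 0.22 and for Plin4 it was Enpp6 at 0.31.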

How the data were processed

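Total RNA of 16 livers was labelled with Cy3 and hybridised to Agilent arrays, per the labels' protocols. Intensities were extracted with Agilent Feature Extraction 11, and Partek was used, per the submitters' processing notes. The values analysed are the authors' deposited log2 table of 60037 probes, in which every array has a median of 4.36. The deposited scanner files (intensity) gave background flags and the alternative scalings. For 6 of the 16 samples the scanner file listed did not match the table's column (r up to 0.168). For all 16 the best match (r at least 0.885) was the file whose slide and position the label names, and that file was used. 36264 probes have a gene symbol.

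Genes were fitted together in limma 3.58.1 (R 4.3.3), 4 groups with 1 shared spread, on 37819 probes kept by the filter and 1 probe per gene. Called means Benjamini-Hochberg adjusted p under 0.05. The fit was tested on simulated data. Members and lists were chosen with earlier results of these data known. List genes named are called genes, up to 4 per list by p. Of these, values are given for genes with a call that held whichever array was left out (and Gpat3 and Mttp in Del against Flox). That choice was made after seeing the values. Pparg, Ppara and the nearest 3 genes were named whatever their values. Alternatives were normexp correction (offset 50), 75th percentile scaling, no filter, 2 groups alone, slide as a block, each slide alone, the mean of a gene's probes, and each array left out. The number of arrays limits precision.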

Additional observations from a re-analysis of the deposited data

Results flagged for a closer look

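Cidea in WT livers had 1 array apart from the others. Replicate 4 was at 6.735 (log2) and the nearest of the other 3 at 7.047, a gap of 0.849 of the group's range, above Dixon's 95% critical value for 4 samples. Over 36 gene-and-group sets checked this was the 1 set past that value, and chance gives about 1 in 20.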

How the results depend on the processing

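No paired analysis was possible because the labels give no replicate numbers, and the numbers used here follow accession order. Lpl and Cd36 kept their calls in H/A against WT, Del against WT and Del against Flox with any 1 array left out and in the other alternatives except slide 1 alone. The count of members called was 0 within slide 1 in each of these comparisons. With 1 array left out it ran from 2 to 5 in H/A against WT (5 without HA replicate 1), 2 to 4 in Del against WT and 3 to 5 in Del against Flox. It was 0 throughout in Flox against WT, H/A against Del and the test between the effects. Of 65 calls of named list genes, 46 held with any array left out and 28 in all alternatives but slide 1. Uncalled values changed sign as follows, and the cause was not tested. Within slide 1, Fabp4 was -0.553 in H/A against WT, -0.786 in Del against WT and -0.043 in Del against Flox; Pnpla2 was -0.208 in Del against WT and -0.172 in Del against Flox; Lpl was 0.011 in Flox against WT and Ppara 0.119 in H/A against WT. Within slide 2, Plin4 was 0.054 in H/A against WT and -0.021 in Del against Flox, and Lpl was 0.175 in H/A against Del and 0.078 between the effects. Fabp4 in H/A against WT was -0.036 with normexp, -0.008 with 75th percentile scaling, -0.030 with the slide as a block and -0.079 as the mean of probes; Ppara there was 0.038 with percentile scaling. As the mean of probes, Fabp4 was -0.137 in Del against WT, Cd36 0.067 in Flox against WT, and Pnpla2 -0.059 in Del against Flox. A called value also turned: Mttp in Del against Flox, -0.361 and called, was 0.131 as the mean of probes. With 1 array left out, H/A against WT ran from -0.213 to 0.347 for Fabp4, -0.278 to 0.149 for Plin4 and -0.213 to 0.061 for Ppara. Del against WT ran from -0.098 to 0.463 for Fabp4 and -0.216 to 0.054 for Ppara. Flox against WT ran from -0.205 to 0.109 for Lpl and -0.100 to 0.057 for Cd36. Pnpla2 ran from -0.058 to 0.240 in Del against Flox, Plin2 from -0.265 to 0.143 in H/A against Del, and Cd36 from -0.025 to 0.185 between the effects.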
